A study of Mus musculus with 15 samples.

Results

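The last step of postnatal Purkinje cell (PC) maturation covered by the series runs from postnatal day 14 (P14) to P21. The 3 libraries labelled P21 were compared with the 3 labelled P14, which are 6 of the 15 libraries of the series. The members were all genes in the count files, of which 12232 passed a filter on low counts. RNA came from PC soma cut one by one out of parasagittal cerebellar sections by laser capture microdissection, a method that removes chosen cells under a microscope, and was amplified with a low-input kit before sequencing. The mice were male C57/BL6 animals (the strain is spelled C56/BL6 in the labels), P14 and P21 differ by age alone in the labels, and at both ages single soma were captured, with 3 biological replicates each. A captured soma can carry RNA of the cells that touch it.

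PCs are the GABAergic output neurons of the cerebellar cortex. They fire at high rates, relying on fast sodium and potassium channels, and they hold large calcium stores and calcium buffers that respond to parallel fibre input. In the third postnatal week the dendrites and the parallel and climbing fibre synapses are being completed, growth genes of the immature neuron have largely been turned off, and the surrounding Bergmann glia take on their adult form.

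The P14 libraries held 5479656 to 5929255 counts on genes and the P21 libraries 3409371 to 7005555. The smallest was P21 replicate 1. Levels are given as CPM, which divides each count by the TMM-corrected depth of its library. Divided by the total counts on genes, without the TMM correction, 3 counts in a library corresponded to between 0.428 and 0.880 CPM. This floor covers counting error only. The defining PC genes were high at both ages. *Calb1*, which encodes the calcium buffer calbindin, stood at 7615, 5424 and 7525 CPM at P14 and 7678, 7293 and 5166 CPM at P21. *Itpr1*, the receptor that releases calcium from the endoplasmic reticulum, stood at 4362, 3239.6 and 4838 CPM at P14 and 5766, 5685 and 5978 CPM at P21. The 20 PC markers summed to 40574 ± 3839 CPM at P14 and 51587 ± 5880 CPM at P21 (SD, n = 3). The 14 markers of Bergmann glia and astrocytes summed to 8329 ± 226 CPM at P14 and 5899 ± 936 CPM at P21. The 12 granule neuron markers summed to 675, 1717 and 803 CPM at P14 and to 567, 459.7 and 891 CPM at P21, so that P14 replicate 2 stood highest. The 15 oligodendrocyte markers ranged from 556 to 606 CPM at P14 and from 688 to 1368 CPM at P21, with P21 replicate 3 highest. The 5 blood markers ranged from 186 to 405 and from 461 to 799 CPM. The 9 microglial markers summed to between 4.93 and 29.0 CPM per library, the 9 vascular markers to between 61.6 and 136 CPM and the 11 interneuron and Golgi cell markers to between 118 and 222 CPM. *Tmem119* of microglia and *Slit1* of interneurons had no count in any of the 6 libraries. In bulk RNA of this kind, fewer cells of a type and less RNA per cell cannot be told apart. Counts on mitochondrially encoded genes made up 3.22, 3.62 and 3.22% of each P14 library and 5.38, 4.51 and 2.94% of each P21 library. RNA integrity, which the study lists for only some libraries, was lower at P21 where it was listed. The paper reports no significant correlation between RNA integrity and any principal component of its data. The part of RNA integrity in the results here was not tested.

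Of 12232 genes tested, 57 were higher and 26 lower at P21 at an adjusted p below 0.05 in edgeR's quasi-likelihood test, which is 0.466% and 0.213% of the genes tested. DESeq2 called 198 higher (1.62%) and 150 lower genes (1.23%), and limma-voom 81 (0.662%) and 32 (0.262%). Below, a gene is written as called where it passed in edgeR, unless another tool is named. The median fold of the 57 was 2.51 and that of the 26 was 4.17, while the median log2 fold change of all genes was -0.004. At an unadjusted p below 0.05 there were 763 higher genes (6.24%) and 630 lower ones (5.15%). Counts of list members below are to be read against the shares given here. Every P21 library lay above every P14 library for 1090 genes (8.91%) and below for 1128 (9.22%), and all 83 called genes were among these. Of the 57 higher genes 54 were protein-coding, as were 25 of the 26 lower ones. The counts moved with single libraries. Leaving out P14 replicate 1, 2 or 3 gave 28, 15 and 18 higher genes and 12, 6 and 9 lower ones. Without P21 replicate 1 or 2 there were 19 and 19 higher genes and 8 and 7 lower ones, and without P21 replicate 3 there were 76 and 58. All 83 kept their direction and an unadjusted p below 0.05 in each of these 6 fits. In addition, 12 higher genes (among them *Sv2c*, *Gm14033*, *Etl4*, *Fam117a*, *Mt1*, *Myo10*, *Muc3a*, *Mt2*, *Efr3a*, *Cds2* and *Peg3*) and 4 lower ones (*Cpne9*, *Fabp7*, *Id3* and *Dcx*) were called in every one of them. For the genes below, the highest adjusted p over these 6 fits is given after the adjusted p of the fit to all 6 libraries. List members given below without a call were mostly chosen after their values were seen.

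**Figure D1:**
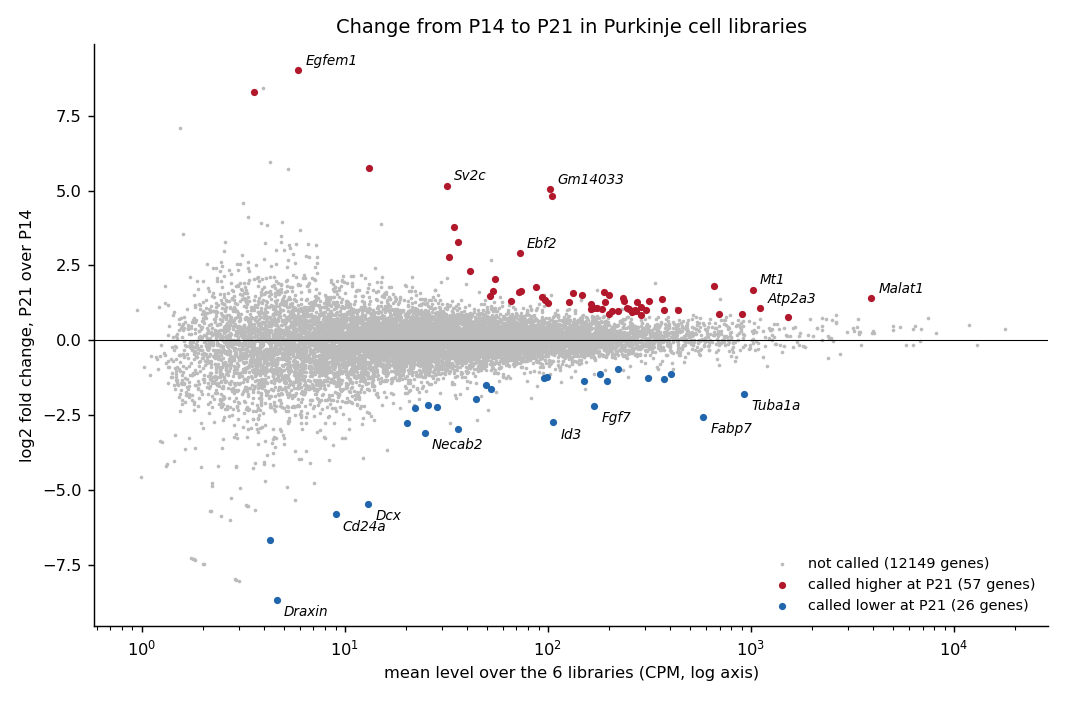
Log2 fold change from P14 to P21 (vertical axis) against the mean level over the 6 libraries (CPM, log axis), 1 point per tested gene. The 57 genes called higher (red) reach further above 0 at low levels. Among the 26 called lower (blue), *Draxin* lies lowest at -8.66, with *Cd24a* at -5.82 and *Dcx* at -5.46. Genes that were not called also lie far below 0, 1 of them at -5.71.

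Among named protein-coding genes, the 12 with the largest rise included a synaptic vesicle protein, a pair of dense-core vesicle genes, a transcription factor of PC subtypes and a metallothionein. *Sv2c*, which encodes a membrane glycoprotein of synaptic vesicles, measured 2.64, 2.24 and 0.174 CPM at P14 and 62.8, 67.02 and 55.6 CPM at P21. P14 replicate 3 was below the 3-count floor, and P14 replicates 1 and 2 were low but above it. The P21 libraries lay within a narrow range, 36.04-fold higher than P14 by the fit (log2 fold change 5.17 ± 0.60, SE, adjusted p = 0.0037, at most 0.034 without 1 library). *Egfem1* had no count in any P14 library and 64, 72 and 13 counts in the P21 libraries, which is at least 57.0-fold higher with the P14 group set at its floor of 3 counts in all (adjusted p = 0.044, up to 0.17). P21 replicate 3 was far below the other two P21 libraries for this gene. *Ankrd6*, whose product acts in Wnt signalling, measured 0.165, 0 and 1.22 CPM at P14 and 10.8, 50.8 and 15.5 CPM at P21, with P21 replicate 2 well above the rest (log2 fold change 5.75 ± 1.04, adjusted p = 0.028, up to 0.19). *Corin*, a membrane serine protease that activates atrial natriuretic peptide, measured 2.801, 3.62 and 7.49 CPM at P14 and 53.3, 110.4 and 29.5 CPM at P21, and again P21 replicate 2 was highest (log2 fold change 3.79 ± 0.56, adjusted p = 0.0095, up to 0.084).

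*Ebf2*, a transcription factor that acts in the identity of PC subtypes, measured 35.3, 6.55 and 9.06 CPM at P14 and 159.6, 140.0 and 85.2 CPM at P21. P14 replicate 1 lay apart from the other two P14 libraries but below all 3 P21 libraries, and the fitted rise was 7.53-fold (adjusted p = 0.030, up to 0.14). *Pcsk1*, the prohormone convertase of dense-core vesicles, measured 7.08, 11.2 and 6.27 CPM at P14 and 67.2, 36.4 and 66.4 CPM at P21, a 6.901-fold rise (adjusted p = 0.0095, up to 0.062). *Ptprn*, a membrane protein of the same vesicles, measured 58.8, 34.7 and 24.7 CPM at P14 and 143, 157 and 106 CPM at P21, a 3.43-fold rise (adjusted p = 0.026, up to 0.17). For both genes the time points did not overlap, as the naming rule required. *Etl4* measured 9.06, 6.898 and 4.18 CPM at P14 and 74.2, 78.2 and 42.99 CPM at P21 (adjusted p = 0.0050, at most 0.037). *Fam117a* measured 14.5, 11.4 and 14.98 CPM at P14 and 78.8, 71.8 and 55.3 CPM at P21 (adjusted p = 0.0060, at most 0.042). *Frmpd3*, which encodes a protein with FERM and PDZ domains, measured 19.1, 15.2 and 29.4 CPM at P14 and 98.9, 76.8 and 90.3 CPM at P21 (adjusted p = 0.0097, up to 0.073). *Snhg11*, a host gene of small nucleolar RNA that GENCODE M21 lists as protein-coding, measured 305, 271 and 296 CPM at P14 and 1415, 1115 and 519 CPM at P21, with P21 replicate 3 lowest of its group (adjusted p = 0.013, up to 0.12).

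**Figure D2:**
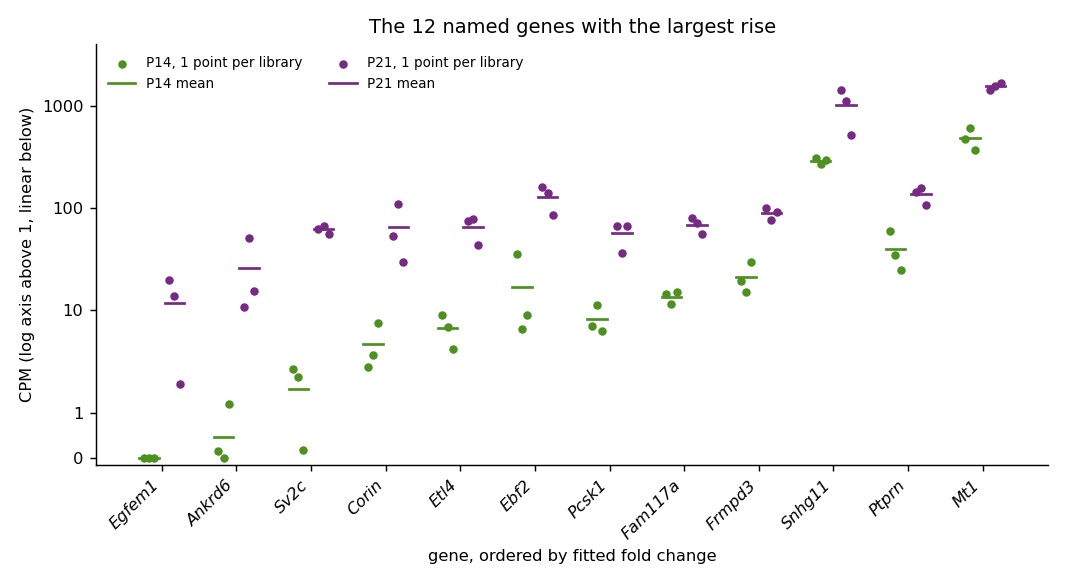
Levels of the 12 named protein-coding genes with the largest rise (CPM, log axis above 1 and linear below), 1 point per library and a bar at the mean of each time point (n = 3). The naming rule required the 3 P21 libraries to lie above the 3 P14 libraries. On the log axis the P21 libraries lie close together for *Mt1* (1429 to 1680.5 CPM) and *Sv2c* (55.6 to 67.0 CPM). They lie most widely apart for *Egfem1* (1.88 to 19.7 CPM).

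*Mt1* and *Mt2*, which encode metallothioneins, small cysteine-rich proteins that bind zinc and copper, both rose. *Mt1* (chr8:94179082-94180327 on GRCm38) measured 468, 609 and 371 CPM at P14 and 1429, 1554 and 1680.5 CPM at P21, a 3.22-fold rise (log2 fold change 1.69 ± 0.19, adjusted p = 0.0036, at most 0.025). *Mt2*, its neighbour on the same strand (chr8:94172664-94173568), measured 124, 149 and 108 CPM at P14 and 336, 297 and 386 CPM at P21, a 2.68-fold rise (log2 fold change 1.42 ± 0.19, adjusted p = 0.0062, at most 0.049). Per exon length the levels were 403 ± 106 RPKM at P14 and 1196 ± 122 RPKM at P21 for *Mt1*, and 224 ± 40 RPKM at P14 and 554 ± 87.5 RPKM at P21 for *Mt2* (RPKM, counts scaled to the total on genes, without TMM, and to kilobases of exon, mean ± SD, n = 3). In both genes the P21 libraries were of like height and, as in every gene called higher, all above the P14 libraries. *Mt3*, a further metallothionein known from brain and chosen after its values were seen, was not called, at 301, 469 and 318 CPM at P14 and 417, 466 and 439 CPM at P21 (log2 fold change 0.28 ± 0.19, adjusted p = 0.65), with overlap. In the brain metallothioneins are made by astrocytes as well as by neurons. The summed Bergmann glia and astrocyte markers were lower at P21 (5050 to 6903 CPM) than at P14 (8083 to 8527 CPM). Which cells carried the metallothionein RNA was not tested. Metallothionein genes are induced by metals through metal response elements, which the factor MTF-1 binds, and by glucocorticoids. The 250 bases before the start that RefSeq lists for each gene (GRCm38.p6, plus strand, chr8:94178839-94179088 for *Mt1* and chr8:94172368-94172617 for *Mt2*) are shown because the pair moved together. Capitals mark the letters TGCACNC or TGCGCNC, the core of that element, on either strand.
Mt1: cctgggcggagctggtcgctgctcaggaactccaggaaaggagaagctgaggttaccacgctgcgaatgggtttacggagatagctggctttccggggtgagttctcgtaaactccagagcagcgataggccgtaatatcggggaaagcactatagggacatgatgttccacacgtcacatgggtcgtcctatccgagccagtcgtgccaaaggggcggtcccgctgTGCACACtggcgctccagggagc
Mt2: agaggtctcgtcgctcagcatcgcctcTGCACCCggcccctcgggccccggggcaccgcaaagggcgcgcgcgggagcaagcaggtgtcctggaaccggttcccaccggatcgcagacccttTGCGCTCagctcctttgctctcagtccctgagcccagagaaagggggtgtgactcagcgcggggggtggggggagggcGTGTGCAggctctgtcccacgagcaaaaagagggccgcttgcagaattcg
*Mt1* held 1 match in this window and *Mt2* held 3, the last of them on the other strand, and 21.4% of the 32851 RefSeq promoter windows of this length held at least 1 and 1.26% held 3 or more. Whether PCs use these starts was not tested, and a start further downstream would leave part of the proximal promoter outside the window. A match is a run of letters and was not tested as a site. Of the 17 glucocorticoid-responsive genes listed, 15 were tested, and *Mt1* and *Mt2* were the only ones called by edgeR, while DESeq2 called 3 members higher and limma-voom 2. *Tsc22d3*, which encodes the glucocorticoid-induced leucine zipper, measured 235, 290.1 and 392 CPM at P14 and 240.3, 329 and 400.2 CPM at P21 (log2 fold change 0.08 ± 0.23). *Fkbp5*, a standard target of the receptor, measured 5.44, 3.97 and 5.75 CPM at P14 and 10.5, 8.67 and 4.49 CPM at P21. The time points overlapped in both. Of the 15 tested, 5 had an unadjusted p below 0.05 in the higher direction in edgeR, *Mt1* and *Mt2* included, against 6.24% of all genes tested. In the lower direction there were 0, against 5.15%. The median log2 fold change of the list was 0.17, with 13 positive and 2 negative values. The largest was 2.01, in a gene that was not called.

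Ion channel genes that serve fast firing were held in a pair of lists. *Scn8a*, the pore subunit of resurgent sodium current, stood at 509, 375 and 409 CPM at P14 and 565, 649.6 and 746 CPM at P21 (log2 fold change 0.60 ± 0.18, adjusted p = 0.20). *Cacna1a*, the P-type calcium channel, stood at 110.4, 93.99 and 117 CPM at P14 and 230.4, 206 and 104 CPM at P21 (log2 fold change 0.74 ± 0.27, adjusted p = 0.30). Neither passed the test, and *Cacna1a* in P21 replicate 3 lay within the P14 range. Of 23 potassium channel and associated genes tested the median log2 fold change was 0.42. An unadjusted p below 0.05 was found for 8 in the higher direction, against 6.24% of all genes tested. It was found for 0 in the lower, against 5.15%. Among the 8, *Kcnma1*, the BK channel, measured 631, 460.3 and 631 CPM at P14 and 846, 941 and 978 CPM at P21 (log2 fold change 0.68 ± 0.17, adjusted p = 0.12), with no overlap.

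In the calcium list of 24 tested genes, 1 was called higher and 1 lower. *Atp2a3*, the SERCA3 pump that refills the endoplasmic reticulum, measured 700.0, 603 and 839 CPM at P14 and 1447, 1534 and 1526 CPM at P21, a 2.104-fold rise (log2 fold change 1.07 ± 0.16, adjusted p = 0.010, up to 0.080). *Hpca*, the calcium sensor hippocalcin, measured 335, 249.7 and 263 CPM at P14 and 136, 106 and 88.2 CPM at P21, a 2.57-fold fall (log2 fold change -1.36 ± 0.22, adjusted p = 0.013, up to 0.077). As in every called gene, the time points did not overlap in *Atp2a3* or *Hpca*. *Itpr1*, *Atp2a2* and *Ryr1*, which release or refill the same store, had log2 fold changes of 0.49 ± 0.16, 0.74 ± 0.18 and 1.23 ± 0.28, with adjusted p of 0.25, 0.10 and 0.088, and every P21 library lay above every P14 library for each. They did not pass the test. The buffers *Calb1* and *Pvalb* had log2 fold changes of -0.03 ± 0.18 and 0.27 ± 0.18, and their time points overlapped.

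Of 22 genes of the parallel fibre synapse 0 were called by edgeR, 5 were called higher by DESeq2 and 2 by limma-voom, 8 had an unadjusted p below 0.05 in the higher direction and 2 in the lower in edgeR, and the median log2 fold change was 0.31. *Homer3*, a postsynaptic scaffold protein, measured 539, 399.9 and 496 CPM at P14 and 861, 869.5 and 598 CPM at P21 (log2 fold change 0.70 ± 0.19, adjusted p = 0.15). Its time points did not overlap, but it did not pass the test over all genes. Of all genes tested, 6.24% and 5.15% had an unadjusted p below 0.05 in the higher and the lower direction. Of the 20 PC markers, 10 had such a p in the higher direction and 1 in the lower, and 1 was called. That gene was *Lhx1*, a LIM homeodomain factor of PCs, at 269, 202 and 274 CPM at P14 and 551, 566 and 383 CPM at P21 (log2 fold change 1.01 ± 0.20, adjusted p = 0.046, up to 0.24). *Car8*, which lowers the sensitivity of the *Itpr1* receptor, stood at 7285, 6719.7 and 8531 CPM at P14 and 9008, 8428 and 9010.0 CPM at P21 (log2 fold change 0.23 ± 0.14) and overlapped between the time points. *Pcp2* stood at 5929, 5665 and 4962 CPM at P14 and 9598, 11379 and 6951 CPM at P21 (log2 fold change 0.75 ± 0.18, adjusted p = 0.093). The marker at an unadjusted p below 0.05 in the lower direction was *Slc1a6*, the PC glutamate transporter EAAT4, at 1978, 1196 and 1439.7 CPM at P14 and 806, 786 and 979.9 CPM at P21 (log2 fold change -0.84 ± 0.20, adjusted p = 0.088).

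Of 24 genes of synaptic vesicle release, 2 were called higher, *Sv2c* and *Vamp1*, against 0.466% of all genes tested. *Vamp1*, a vesicle SNARE of fast synapses, measured 96.7, 50.7 and 71.9 CPM at P14 and 212, 161 and 166 CPM at P21, a 2.46-fold rise (adjusted p = 0.044, up to 0.19). Of the other SV2 genes, *Sv2a* stood at 660.0, 431 and 614 CPM at P14 and 807, 714 and 739.6 CPM at P21 (log2 fold change 0.41 ± 0.18, adjusted p = 0.43). *Sv2b* stood at 40.4, 17.6 and 20.7 CPM at P14 and 12.3, 21.6 and 25.9 CPM at P21 (log2 fold change -0.39 ± 0.46), and neither passed the test. *Snap25*, a SNARE of the presynaptic membrane, measured 1298, 1749 and 1414 CPM at P14 and 2431, 2187 and 2636 CPM at P21, without overlap and short of the threshold (log2 fold change 0.70 ± 0.16, adjusted p = 0.085). In the list of glutamate receptors 0 of 14 tested genes were called by edgeR or limma-voom and 1 by DESeq2, with 3 and 1 at an unadjusted p below 0.05 in the higher and the lower direction in edgeR. *Gria2*, the AMPA receptor subunit that blocks calcium entry, stood at 606, 580.1 and 761 CPM at P14 and 956, 924 and 793 CPM at P21 (log2 fold change 0.46 ± 0.17). Of 16 inhibitory receptor genes 1 was called, *Gabrg1*, and it was lower.

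Several further called rises lay outside the lists and were chosen after their values were seen. *Scg2*, a granin of dense-core vesicles, measured 159.6, 123 and 135 CPM at P14 and 284, 288 and 253 CPM at P21 (log2 fold change 0.98 ± 0.18, adjusted p = 0.035, up to 0.19). *Pcsk6*, a proprotein convertase, measured 224, 189.5 and 206 CPM at P14 and 362, 373 and 376 CPM at P21 (log2 fold change 0.84 ± 0.16, adjusted p = 0.044, up to 0.21). The time points did not overlap in either gene, as in every called gene. Of imprinted genes expressed from the paternal allele, *Peg3* measured 153, 166 and 166 CPM at P14 and 392, 408 and 366 CPM at P21 (log2 fold change 1.27 ± 0.17, adjusted p = 0.0060, at most 0.037). *Nap1l5* measured 94.6, 109 and 132 CPM at P14 and 319, 282 and 212 CPM at P21 (log2 fold change 1.27 ± 0.21, adjusted p = 0.020, up to 0.12). *Cds2* and *Efr3a* act in the supply of phosphoinositides, the first as a CDP-diacylglycerol synthase and the second as an anchor of phosphatidylinositol 4-kinase at the plasma membrane. *Cds2* measured 137, 134 and 133 CPM at P14 and 346, 329 and 341 CPM at P21 (log2 fold change 1.33 ± 0.17, adjusted p = 0.0050, at most 0.037). *Efr3a* measured 238, 188 and 181 CPM at P14 and 534, 592 and 464 CPM at P21 (log2 fold change 1.39 ± 0.18, adjusted p = 0.0060, at most 0.045). *Sorl1*, a sorting receptor of endosomes, had the smallest log2 fold change of the 57, at 1124, 1014 and 1237 CPM at P14 and 1760.3, 2036 and 1968 CPM at P21 (log2 fold change 0.77 ± 0.15, adjusted p = 0.043, up to 0.20).

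The genes that fell included several known from immature neurons. *Dcx*, the microtubule-associated protein doublecortin of migrating and growing neurons, measured 30.5, 21.2 and 25.1 CPM at P14 and 0.308, 0.385 and 0.869 CPM at P21. All 3 P21 libraries were near the floor, a 44.2-fold fall by the fit (log2 fold change -5.46 ± 0.67, adjusted p = 0.0050, at most 0.034). *Cd24a*, a surface glycoprotein of immature neurons, had 109, 126 and 78 counts at P14 and 0, 0 and 5 counts at P21, a ratio of 54.6 with a counting interval from 23.1 to 169 (95%, adjusted p = 0.026, up to 0.17). *Draxin*, a secreted axon guidance protein, had 76, 18 and 69 counts at P14 and none at P21, at least 47.4-fold lower with the P21 group at its floor of 3 counts (adjusted p = 0.045, up to 0.17). *Ppp1r26*, chosen after its values were seen, had 37, 86 and 27 counts at P14 and 0, 0 and 1 at P21, a ratio of 131 with a counting interval from 23.1 to 5197 (95%, adjusted p = 0.048). *Tuba1a*, the alpha-tubulin of growing neurites, measured 1533, 1662 and 1119 CPM at P14 and 315, 331 and 609 CPM at P21, a 3.44-fold fall with P21 replicate 3 highest of its group (log2 fold change -1.78 ± 0.26, adjusted p = 0.0092, up to 0.059). *Tmsb10*, the actin-binding thymosin beta-10, measured 47.5, 41.7 and 36.05 CPM at P14 and 9.55, 9.05 and 9.55 CPM at P21, with the P21 libraries nearly equal (adjusted p = 0.023, up to 0.12).

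The axon growth and immature neuron list had 24 tested genes, of which 3 fell (*Draxin*, *Dcx* and *Tuba1a*), while DESeq2 called 9 lower and limma-voom 3 and none of the tools called a member higher. In edgeR there were 12 at an unadjusted p below 0.05 in the lower direction, against 5.15% of all genes tested, and 0 in the higher, against 6.24%. The median log2 fold change of the list was -0.60 and 22 of the 24 were negative. *Marcksl1* measured 60.3, 49.5 and 42.3 CPM at P14 and 20.3, 20.99 and 14.2 CPM at P21 (log2 fold change -1.46 ± 0.33, adjusted p = 0.085). *Robo2*, an axon guidance receptor, measured 148, 108 and 131 CPM at P14 and 73.3, 43.9 and 64.4 CPM at P21 (log2 fold change -1.09 ± 0.25, adjusted p = 0.088). Neither overlapped between the time points and neither passed. *Gap43*, the growth cone protein, stood at 109, 167 and 65.3 CPM at P14 and 57.9, 15.4 and 58.2 CPM at P21 (log2 fold change -1.38 ± 0.45, adjusted p = 0.25). The stathmins *Stmn2* and *Stmn3* had log2 fold changes of -0.11 ± 0.15 and -0.01 ± 0.14. Granule neurons express many of these genes as they mature, and the granule marker sum was lower at P21 in mean (1065 ± 568 against 639 ± 225 CPM), with overlap between the time points. In P14 replicate 2, where the granule sum was highest, *Tuba1a*, *Cd24a* and *Gap43* were the highest of the P14 libraries and *Dcx*, *Draxin* and *Robo2* the lowest. The part of granule RNA in these falls was not tested.

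Outside that list, *Fgf7*, a growth factor that organises inhibitory presynaptic terminals, measured 368, 202 and 263 CPM at P14 and 32.6, 62.8 and 84.2 CPM at P21, a 4.597-fold fall (log2 fold change -2.20 ± 0.32, adjusted p = 0.0095, up to 0.054). *Necab2*, a neuronal calcium-binding protein, measured 56.8, 41.6 and 34.3 CPM at P14 and 5.85, 7.32 and 2.605 CPM at P21, an 8.49-fold fall (adjusted p = 0.012, up to 0.079). *Fxyd6*, a regulator of the sodium-potassium pump, measured 50.7, 95.5 and 44.8 CPM at P14 and 12.01, 8.47 and 4.63 CPM at P21, a 7.75-fold fall (adjusted p = 0.010, up to 0.11). The naming rule required these 3 genes not to overlap between the time points. *Fxyd6* at P14 was highest in replicate 2. *Fam234a* measured 41.9, 41.4 and 26.99 CPM at P14 and 5.54, 5.58 and 11.6 CPM at P21 (adjusted p = 0.048, up to 0.24). *Cpne9*, a calcium-dependent membrane-binding protein chosen after its values were seen, measured 521, 536 and 526 CPM at P14 and 212, 253 and 182 CPM at P21 (adjusted p = 0.0062, at most 0.042).

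**Figure D3:**
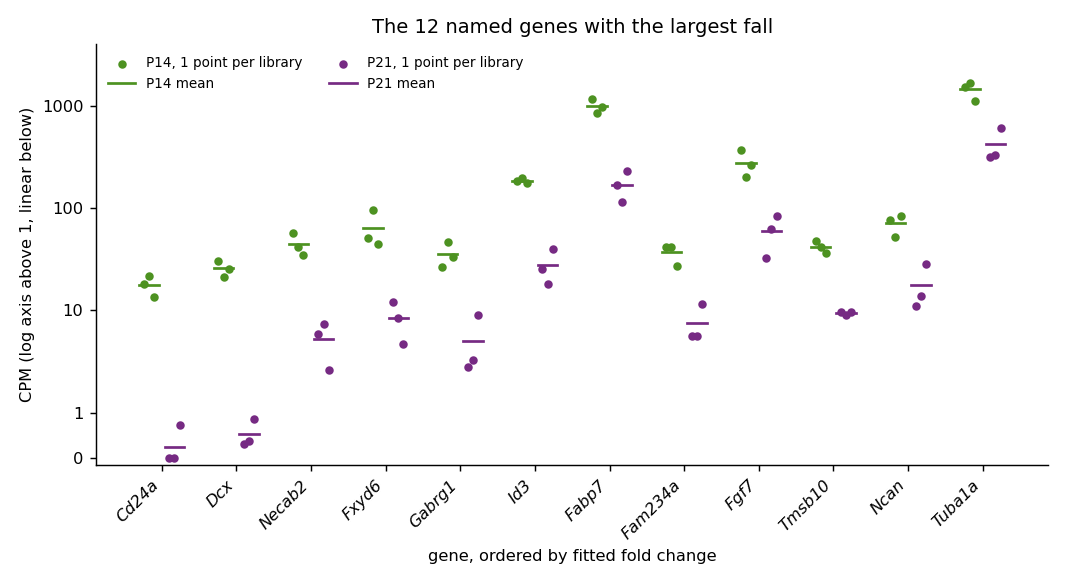
Levels of the 12 named protein-coding genes with the largest fall (CPM, log axis above 1 and linear below), 1 point per library and a bar at the mean of each time point (n = 3). The naming rule required the 3 P21 libraries to lie below the 3 P14 libraries. *Cd24a* and *Dcx* are below 1 CPM in all 3 P21 libraries.

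A pair of the glial markers fell. *Fabp7*, the brain lipid-binding protein of radial and Bergmann glia, measured 1164, 847 and 979.6 CPM at P14 and 166, 113 and 228 CPM at P21, a 5.88-fold fall that was called in each fit without 1 library (log2 fold change -2.56 ± 0.25, adjusted p = 0.0014, at most 0.025). *Aqp4*, the astrocytic water channel, measured 506, 389.9 and 418 CPM at P14 and 162, 138 and 246 CPM at P21, a 2.399-fold fall (log2 fold change -1.26 ± 0.23, adjusted p = 0.026, up to 0.15). These were the 2 members called by edgeR among the 14 tested Bergmann glia and astrocyte markers (4 by DESeq2 and 3 by limma-voom), whose median log2 fold change was -0.28. The list did not move as one. *Slc1a3*, the glial glutamate transporter GLAST, stood at 2845, 3302 and 3376 CPM at P14 and 2245, 1836 and 2785 CPM at P21 (log2 fold change -0.47 ± 0.17, adjusted p = 0.29). *Slc1a2* and *S100b* had log2 fold changes of 0.15 ± 0.17 and 0.23 ± 0.24, and their time points overlapped. *Id3*, an inhibitor of bHLH transcription factors, measured 185, 194 and 177 CPM at P14 and 25.6, 17.9 and 39.2 CPM at P21, a 6.68-fold fall (log2 fold change -2.74 ± 0.29, adjusted p = 0.0019, at most 0.025). *Gabrg1*, the gamma-1 subunit of the GABA-A receptor, which Bergmann glia also express, measured 26.5, 46.2 and 33.3 CPM at P14 and 2.77, 3.27 and 8.97 CPM at P21 (log2 fold change -2.78 ± 0.54, adjusted p = 0.043, up to 0.24). The summed glial markers were lower in every P21 library than in every P14 library. This sum includes *Fabp7* and *Aqp4* themselves, so it is not separate from their falls. The part of glial RNA in the falls of these 4 genes was not tested.

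The matrix list held 1 called gene in each direction, and the cholesterol list held 1 lower one. *Hapln4*, the link protein of perineuronal nets, measured 185, 158 and 204 CPM at P14 and 455, 407 and 319 CPM at P21, a 2.16-fold rise (log2 fold change 1.11 ± 0.19, adjusted p = 0.024, up to 0.15). *Ncan*, the juvenile proteoglycan neurocan, measured 75.6, 52.1 and 83.8 CPM at P14 and 11.1, 13.9 and 28.2 CPM at P21, a 3.92-fold fall (log2 fold change -1.97 ± 0.38, adjusted p = 0.044, up to 0.18). The 2 genes lie close to each other on chromosome 8, at chr8:70083457-70090862 and chr8:70093085-70120873, and were the only members called by edgeR of 14 tested in the matrix list, in which DESeq2 and limma-voom each called 1 higher and 3 lower. Of 22 genes of cholesterol synthesis 1 was called, *Msmo1*, a sterol oxidase, at 90.1, 64.5 and 83.1 CPM at P14 and 18.2, 21.4 and 36.9 CPM at P21 (log2 fold change -1.62 ± 0.32, adjusted p = 0.045, up to 0.17). The list had 7 genes at an unadjusted p below 0.05 in the lower direction and 0 in the higher, with a median log2 fold change of -0.47. *Sqle*, squalene epoxidase, stood at 85.2, 65.4 and 68.8 CPM at P14 and 28.03, 7.13 and 25.9 CPM at P21 (log2 fold change -1.85 ± 0.43, adjusted p = 0.090). *Fabp5*, a fatty acid-binding protein, chosen after its values were seen, measured 318, 297 and 263 CPM at P14 and 156, 139 and 161 CPM at P21 (log2 fold change -0.94 ± 0.18, adjusted p = 0.035, up to 0.16).

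Myelin genes had the highest median of the 32 lists, and 0 were called by edgeR, 3 by DESeq2 and 1 by limma-voom. Of 11 oligodendrocyte markers tested 6 had an unadjusted p below 0.05 in the higher direction and 0 in the lower, and the median log2 fold change was 1.66. *Mbp*, myelin basic protein, measured 86.2, 118 and 42.1 CPM at P14 and 105, 157 and 361 CPM at P21 (log2 fold change 1.34 ± 0.43, adjusted p = 0.24), with P21 replicate 3 highest and overlap between the time points. *Cnp*, a myelin enzyme, stood at 274, 254 and 322 CPM at P14 and 193, 216 and 295 CPM at P21 (log2 fold change -0.27 ± 0.20), with overlap. The 5 haemoglobin and erythroid markers had a median log2 fold change of 1.12, with 0 called higher by edgeR, 3 by DESeq2, 1 by limma-voom and 4 at an unadjusted p below 0.05. The 11 granule markers tested had a median of -0.68, with 0 called by edgeR, DESeq2 or limma-voom and 3 at an unadjusted p below 0.05 in the lower direction. *Neurod1*, a transcription factor of granule neurons, stood at 216, 531 and 232 CPM at P14 and 152, 139 and 254 CPM at P21, with P14 replicate 2 highest. Of interneuron and Golgi cell markers 9 were tested, with a median of -0.28, 0 called by edgeR or limma-voom, 2 called lower by DESeq2 and 2 at an unadjusted p below 0.05 in the lower direction. Of the 3 microglial and 7 vascular markers tested, with medians of -0.99 and -0.69, 0 were called by any of the 3 tools and 0 had an unadjusted p below 0.05.

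Lists of general cell functions held 1 called gene. Of 80 cytosolic ribosomal protein genes tested 10 had an unadjusted p below 0.05 in the lower direction and 0 in the higher, and the median log2 fold change was -0.23, with *Rps14* at 643, 724 and 556 CPM at P14 and 481, 479 and 449.9 CPM at P21. Of 80 nuclear-encoded subunits of the respiratory chain 1 was called, *Cox6b2*, an isoform of a cytochrome oxidase subunit known from testis, at 114, 104 and 106 CPM at P14 and 239.6, 233 and 211 CPM at P21 (log2 fold change 1.08 ± 0.18, adjusted p = 0.019, up to 0.12), while the list median was -0.02. The 11 mitochondrially encoded genes tested had a median of 0.46 and 3 had an unadjusted p below 0.05 in the higher direction. *mt-Cytb* stood at 5046, 5746 and 5377 CPM at P14 and 8334, 8237 and 5777 CPM at P21, so that P21 replicate 3 was close to the P14 libraries. The other lists without a called gene covered 35 proteasome subunits (median -0.17), 26 splicing factors (-0.01), 18 glycolytic genes (-0.05), 19 neurofilament and microtubule genes (0.31), 15 immediate early genes (0.30), 13 heat shock and stress genes (0.35), 11 genes of the thyroid hormone pathway (0.08), 17 clock genes (0.14), 10 interferon and MHC class I genes (-0.23) and 10 cell cycle genes (-0.20). Over the 14 lists without a called gene, the glutamate receptor, parallel fibre synapse, ribosomal and mitochondrially encoded lists included and the markers of other cell types left out, 301 genes were tested. That edgeR called 0 of these was fixed by how the lists were chosen. At an unadjusted p below 0.05 edgeR had 27 higher and 22 lower of the 301, against 6.24% and 5.15% of all genes tested. The higher ones were unevenly spread. They made up 6 of the 19 neurofilament and microtubule genes, 4 of the 13 heat shock and stress genes and 0 of the 18 glycolytic genes. DESeq2 called 13 higher and 0 lower, against 1.62% and 1.23% of all genes. For limma-voom there were 2 higher and 0 lower, against 0.662% and 0.262%.

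**Figure D4:**
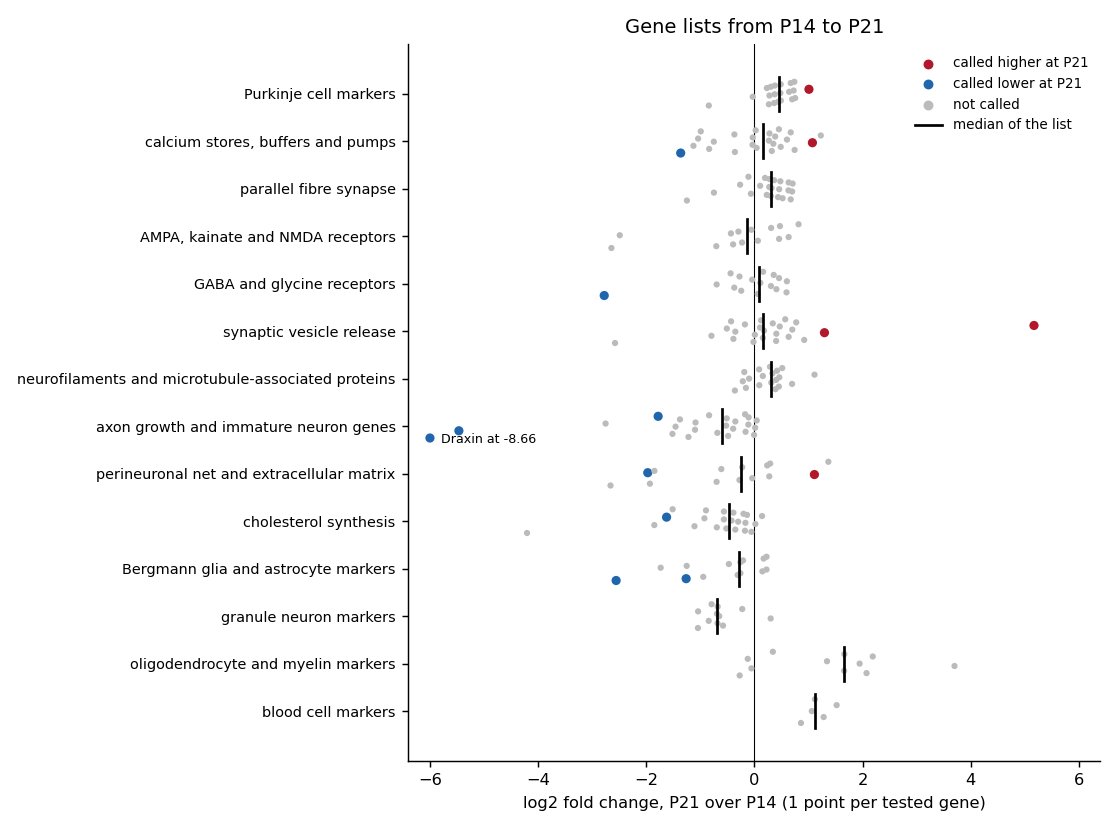
Log2 fold changes from P14 to P21 of the tested genes of 14 lists, 1 point per gene, with called genes in red (higher) or blue (lower) and a bar at each list's median. The axon growth list has its 3 called genes on the left, with *Draxin* at -8.66 drawn at the edge, and the oligodendrocyte markers have the highest median (1.66) without a called gene.

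The same genes were followed in the P0, P4 and P8 libraries, which the comparison did not use. Highest and lowest means at P14 or P21 are in part fixed by how the genes were chosen. Of the 57 higher genes 55 had their highest mean at P21, against 25.9% of all genes tested, and 43 (75.4%) had a higher mean at P8 than at P4, against 50.4% of all genes tested. Their median log2 change from P4 to P8 was 0.75 against 0.01 for all. *Hapln4* averaged 0.794, 8.16, 74.9, 202 and 431 CPM at P0, P4, P8, P14 and P21, and *Atp2a3* averaged 0.732, 12.9, 163, 792 and 1648 CPM. *Mt1* was low to P8 and high from P14 (60.5, 95.8, 72.1, 536 and 1706 CPM), and *Sv2c* was near 0 until P21 (0, 0.228, 1.45, 1.88 and 67.8 CPM). These means use all 15 libraries scaled together and so differ somewhat from the levels above. For 7 of the 57 the lowest mean was at P14. *Ebf2* averaged 374, 157, 75.4, 18.9 and 140.4 CPM and *Ankrd6* 58.9, 3.28, 12.8, 0.509 and 28.2 CPM, so that both started high at P0, where cells were captured as clusters rather than as single soma. Of the 26 lower genes 14 had their highest mean at P0, as did 3195 of the 12232 genes tested. The lowest mean was at P21 for 20 of them, against 25.7% of all genes, and the highest at P14 for 5. A lower mean at P8 than at P4 was found for 57.7% of the 26 and 49.5% of all genes. *Dcx* averaged 662, 458, 264, 28.4 and 0.573 CPM, whereas *Fabp7* was highest at P4 and P8 (2687, 4516, 4662, 1107 and 186 CPM) and *Fgf7* at P14 (0.671, 10.8, 185, 309 and 65.9 CPM).

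**Figure D5:**
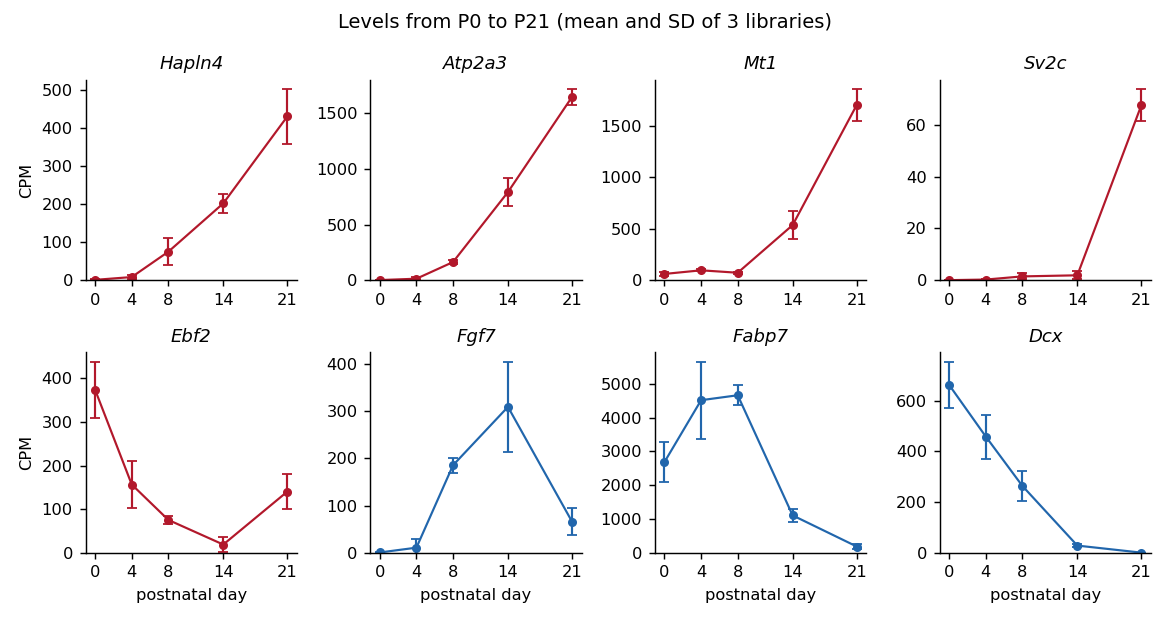
Levels of 8 genes by postnatal day (CPM on library sizes scaled over all 15 libraries), points at the mean and bars of 1 SD of 3 libraries, in red for genes called higher at P21 and blue for those called lower. *Ebf2* has its lowest mean at P14, and *Fgf7* peaks at P14.

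The change was also set against gene length, since RNA integrity was lower at P21 where it was listed. The median summed exon length was 6334 bases for the higher genes, 3567 for the lower and 4516 for all genes tested with a length. In 5 bins of exon length, from shortest to longest, the median log2 fold change was -0.05, -0.07, 0.01, 0.02 and 0.08, and the bins held 9, 5, 7, 12 and 23 of the higher genes and 8, 5, 4, 7 and 1 of the lower. For the longest genes the median log2 difference from the P14 mean was 0.10, 0.07 and 0.13 for P21 replicates 1, 2 and 3, and in the shortest it was -0.02, 0.04 and -0.12. Each P14 library set against the other P14 libraries gave -0.01, -0.03 and 0.08 for the longest genes and 0.02, 0.08 and -0.05 for the shortest, so that P14 replicate 3 lay within the P21 range in the longest bin. The part of length or RNA integrity in the calls was not tested.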

How the data were processed

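Purkinje cell RNA was sequenced by the authors in 15 libraries, of which the 3 P14 and 3 P21 libraries were compared here. The authors trimmed the reads (cutadapt 1.2.1), aligned them to GRCm38/mm10 (GSNAP), retained uniquely mapping reads and deposited whole-number counts per Ensembl gene (HTSeq 0.5.3p9, intersection-strict), without normalization. The annotation release and the strand setting are not given in the sources used here, so reads of a gene and of a partner on the opposite strand cannot be told apart. Reads that HTSeq assigned to no gene and the other 4 of 5 tallies were dropped. Reads assigned to no gene can include reads only partly within an exon. They made up 16.7 to 19.1% of the reads tallied to a gene, to no gene or as ambiguous in each of the 6 libraries. Of 38561 identifiers 36639 matched GENCODE M21, which gave names, positions and exon lengths.

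Differences were tested in edgeR 4.0.16 (R 4.3.3) by quasi-likelihood, with TMM scaling, filterByExpr by time point and Benjamini-Hochberg adjustment at 0.05. Fold changes and SE are from this fit, the SE derived from the fold change and its F statistic, and the biological coefficient of variation was 0.462. Promoter windows came from RefSeq. Figures were drawn with matplotlib 3.10.9 from tables made with pandas 2.3.3 in Python 3.11.15. DESeq2 1.42.0 and limma-voom (limma 3.58.1) were alternatives, beside other scaling, other filters, all 15 libraries, a replicate block and libraries left out. The tests were tried on simulated counts in which 100 genes were changed 2-fold and 100 were changed 4-fold. In these, edgeR recovered 30 and 90 of the changed genes with 9 false calls. DESeq2 recovered 44 and 95 with 41 false calls, and limma-voom 29 and 88 with 7. The changed genes were drawn only from genes above a minimum mean level, and the simulated spread was the one fitted by edgeR. Recovery of genes at lower levels was not tried. Genes were named as the 12 largest rises and falls among called protein-coding genes of at least 10 CPM at the higher time point without overlap, with up to 4 called and 2 high-level members of each of 32 lists (the latter not all printed). Some of these genes are not reported here. Other genes named were chosen after their values were seen. The comparison and the lists were chosen with earlier results of these data known. P-values measure the spread between these 3 libraries per age.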

Additional observations from a re-analysis of the deposited data

How the results depend on the processing

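The direction of all 83 called genes was the same in every alternative in which they were tested. The counts depended on the settings. DESeq2's Wald test called 198 higher and 150 lower genes, and testing without a filter on low counts 109 and 72. A fit to all 15 libraries, whose biological coefficient of variation was 0.705, called 9 higher and 38 lower. With 1 library left out in turn the counts ranged from 15 to 76 higher and from 6 to 58 lower. With P21 replicate 3 as the lone P21 library, assumed to vary like the P14 libraries, edgeR called 0 and 0, with 441 and 512 at an unadjusted p below 0.05. Over all genes tested, same-numbered libraries did not deviate together (correlations of -0.04, -0.04 and -0.04). These correlations cannot show whether the numbers link libraries through few genes. A fit with the replicate block called 16 higher and 7 lower. Of 2024 values of single genes under alternatives, 1501 stayed on their side of the threshold, 511 lost and 12 gained the call, and 0 changed sign. The cause of these differences was not tested. Low genes are limited by the 3-count floor, and the 3409371 counts of P21 replicate 1 set the highest floor.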

Other observations

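Long noncoding RNAs were among the called genes, and were chosen for description after their values were seen. *Malat1*, an abundant nuclear RNA (chr19:5795690-5802672 on GRCm38), measured 2026, 2450.1 and 1967 CPM at P14 and 7308, 5731 and 3962 CPM at P21 (log2 fold change 1.40 ± 0.21, adjusted p = 0.0095 in edgeR, up to 0.079 without 1 library). The P21 libraries differed among themselves, replicate 1 being highest and replicate 3 lowest, in the same order as their shares of mitochondrially encoded counts (5.38, 4.51 and 2.94%). *Snhg11* had that order as well (1415, 1115 and 519 CPM). *Gm14033* (chr2:55411790-55433435) measured 1.32, 10.2 and 6.62 CPM at P14 and 227, 206 and 165 CPM at P21 (log2 fold change 5.04 ± 0.49, adjusted p = 0.0014, at most 0.025), and its means at P0, P4 and P8 were below 1 CPM. One identifier that GENCODE M21 does not name, ENSMUSG00000098220, measured 8.57, 12.9 and 0 CPM at P14 and 233, 175 and 198 CPM at P21 (adjusted p = 0.0097, up to 0.052), and another, ENSMUSG00000050347, fell from 53.05, 51.4 and 35.9 CPM at P14 to 9.55, 10.4 and 10.1 CPM at P21 (adjusted p = 0.017, up to 0.12).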
